A study of Mus musculus with 6 samples.

Results

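The guidance genes of the semaphorin, plexin, ephrin and Eph families were followed through mouse implantation, in single cells of embryos from E3.5 to E5.5. Members were taken by symbol: every gene of the deposited feature lists whose symbol starts with Sema3 to Sema7 or Plxn, or with Efna, Efnb, Epha or Ephb and a digit. This gave 54 genes of 32285, of which 51 are protein-coding and 3 are antisense RNAs of Plxna4. By role they were 7 secreted class 3 semaphorins, 13 membrane-bound semaphorins of classes 4 to 7, 9 plexins, 5 ephrins-A, 3 ephrins-B, 9 EphA receptors and 5 EphB receptors, beside the antisense RNAs.

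Semaphorins are ligands that steer migrating cells and growing axons, and plexins are their receptors. Class 3 semaphorins are secreted and mostly act through neuropilin and plexin-A complexes, while Sema3e binds Plxnd1 directly. Ephrins are tethered to the cell surface, the A type by a lipid anchor and the B type by a membrane span, and Eph receptor tyrosine kinases read them on neighbouring cells, so that signals run both ways. Eph and ephrin pairs are known for keeping cell populations apart at tissue boundaries.

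Embryos came from crosses of B6SJLF1/J females with B6CBAF1/J males, and no allele or agent was compared. The E3.5 and E4.5 embryos were uterine flushes after superovulation of females aged 4 weeks, and the 4 later stages were dissections from females aged 7 weeks. Each of the 6 stages is 1 library of pooled, dissociated embryos, and a 20 µm filter was used for E5.5 and the flushed stages alone, so stage, collection and filtering cannot be told apart. The labels do not say how many embryos went into a library. No stage has a replicate library, and differences between stages carry no test.

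After filtering, 20820 cells remained, the fewest (88) from the E3.5 library, 962 from E4.5, and then 2497 (E4.75), 5262 (E5.0), 3908 (E5.25) and 8103 cells (E5.5). The median UMI count per cell, a count of captured RNA molecules, lay between 5104 at E5.5 and 31093 at E4.75. Cells were grouped into 23 clusters without the 54 guidance genes among the genes used, and clusters were named from markers. Giant cell-like cells (190 to 335 a library), the invasive trophoblast, were counted from E5.0 on. Trophoblast-like cells were present in all 6 libraries (42 to 2626 cells), as were epiblast-like cells (44 to 2367). Parietal endoderm-like cells (227 to 437), which lie on the outer membrane, were counted from E5.0 on, and endoderm-like cells, the primitive endoderm of E4.5 and the visceral endoderm later, numbered 419 to 1517 from E4.5 on. Summed epiblast markers stood at 1869 to 2753 CPM in epiblast-like cells and at 130 to 772 CPM in the other classes, and giant cell markers at 3981 to 6107 CPM in giant cell-like cells and at most 795.5 CPM elsewhere. The E3.5 epiblast-like sum also held 1493 CPM of parietal endoderm markers and 323 CPM of endoderm markers. Later epiblast-like sums held 129 to 229 CPM and 109 to 174 CPM of these. Related classes shared markers. Trophoblast markers were at 3445 to 4884 CPM in giant cell-like and 2423 to 3853 CPM in trophoblast-like cells from E4.5 on, and parietal endoderm markers reached 7525 CPM in E4.5 endoderm-like cells, whose endoderm markers summed to 7933 CPM. Erythroid markers reached at most 2.10 CPM in any class from E4.5 on, lymphoid markers 10.7, decidual stroma markers 28.6 and macrophage markers 35.1 CPM. Uterine epithelium markers reached 111 CPM, in trophoblast-like cells, and endothelium markers 159 CPM, in giant cell-like cells. Levels are CPM, counts scaled to the same UMI total for every sum, of all cells of a class in a library, and classes of 1 library share its free RNA.

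Of the 54 genes, 32 reached 10 CPM in at least 1 of the 23 class sums and 20 reached 50 CPM. All 5 ephrins-A reached 10 CPM, as did 2 of 3 ephrins-B, 4 of 5 EphB and 5 of 9 EphA receptors. Of the semaphorins, 2 of 7 in class 3, 4 of 6 in class 4, 2 of 2 in class 5, 3 of 4 in class 6 and Sema7a did so, against 4 of 9 plexins. The 22 genes below 10 CPM everywhere were Efnb3, Epha3, Epha5, Epha6, Epha8, Ephb6, Plxna3, Plxna4, Plxnb3, Plxnc1, Plxnd1, Sema3a, Sema3b, Sema3c, Sema3d, Sema3g, Sema4a, Sema4f, Sema6c and the 3 antisense RNAs, 2 of which had no UMI in any class.

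**Figure D1:**
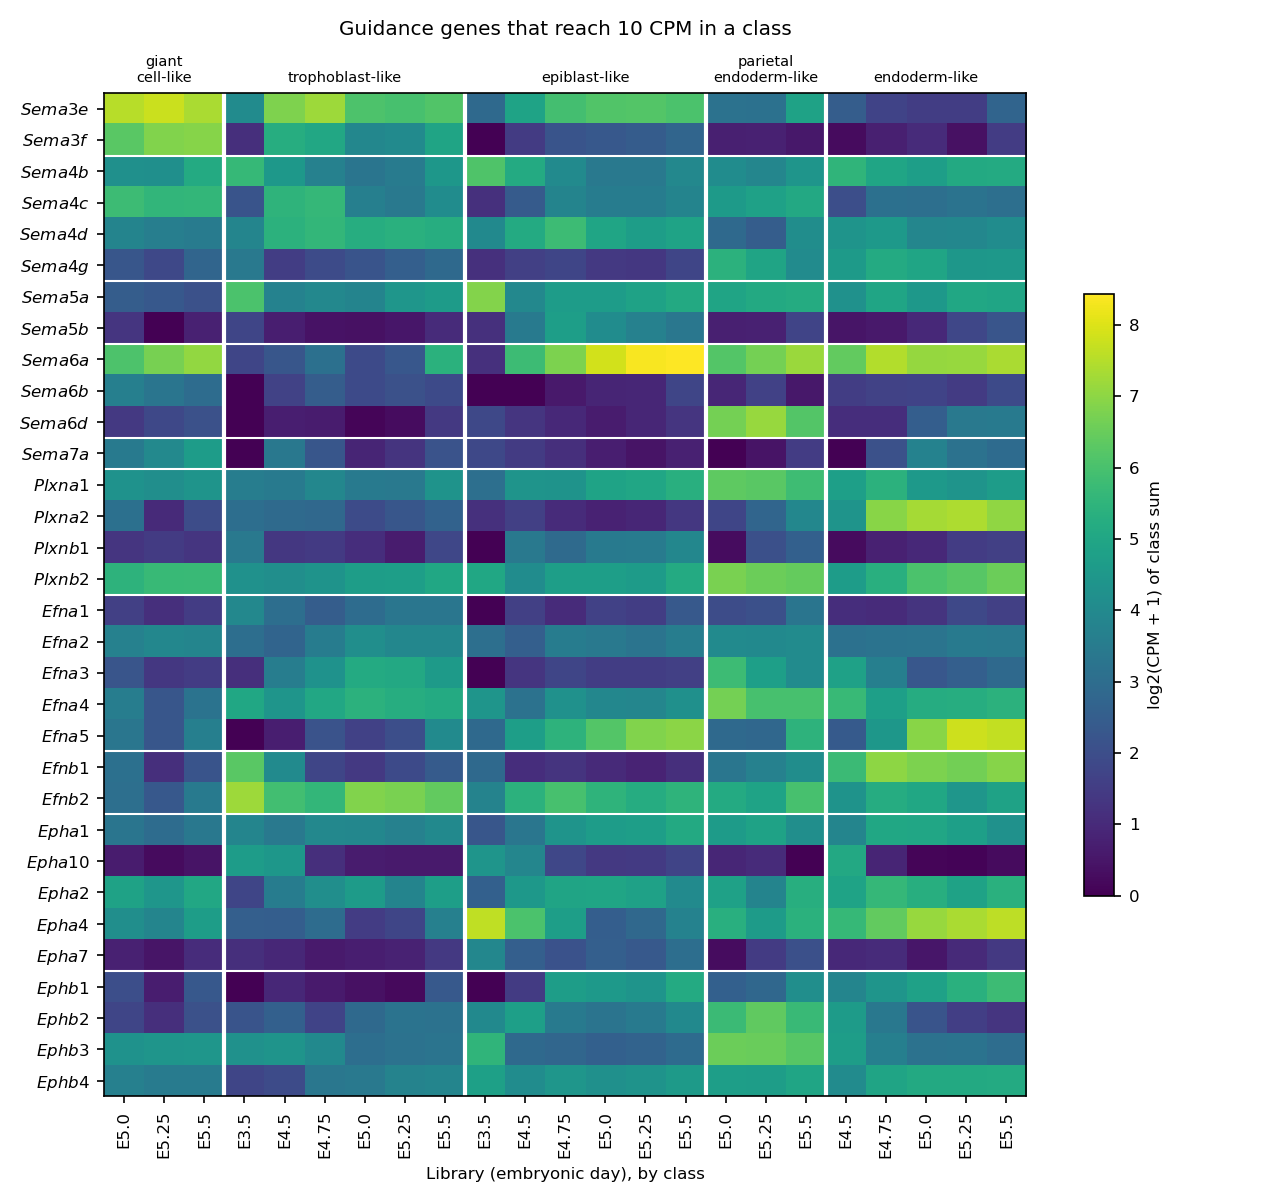
Level of the 32 guidance genes that reached 10 CPM, as log2(CPM + 1) of each class sum, in 23 columns by class and library (embryonic day). Rows run from class 3 semaphorins to EphB receptors, with white lines between roles. Sema6a is brightest in epiblast-like cells, Plxna2 and Efnb1 in endoderm-like cells, and Sema6d, Ephb2 and Ephb3 in parietal endoderm-like cells. Epha4 reaches 198 CPM in E3.5 epiblast-like cells and 193 CPM in E5.5 endoderm-like cells.

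Promoter windows are shown for 4 members with large differences between lineages, picked after their values were seen: Plxna2, Efnb1 and Epha4, called higher in endoderm-like than in trophoblast- and epiblast-like cells, and Sema3e, called lower in endoderm-like cells than in both and highest in giant cell-like cells. Each window runs from 250 bases before to 50 bases after the RefSeq start of the gene, in GRCm38.p6 coordinates, at chr1:194619579-194619878 on the plus strand for Plxna2, chrX:99135811-99136110 on the plus strand for Efnb1, chr1:77515039-77515338 on the minus strand for Epha4 and chr5:14025026-14025325 on the plus strand for Sema3e. Capitals mark matches, on either strand, to the letters bound by GATA factors (GATA preceded by A or T and followed by A or G) or to the octamer ATGCAAAT.
Plxna2: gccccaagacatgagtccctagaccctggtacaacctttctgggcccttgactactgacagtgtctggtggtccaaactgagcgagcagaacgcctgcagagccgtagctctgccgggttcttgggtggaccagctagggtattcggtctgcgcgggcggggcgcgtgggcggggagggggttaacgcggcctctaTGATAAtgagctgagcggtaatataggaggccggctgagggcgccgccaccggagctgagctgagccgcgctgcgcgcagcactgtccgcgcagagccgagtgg
Efnb1: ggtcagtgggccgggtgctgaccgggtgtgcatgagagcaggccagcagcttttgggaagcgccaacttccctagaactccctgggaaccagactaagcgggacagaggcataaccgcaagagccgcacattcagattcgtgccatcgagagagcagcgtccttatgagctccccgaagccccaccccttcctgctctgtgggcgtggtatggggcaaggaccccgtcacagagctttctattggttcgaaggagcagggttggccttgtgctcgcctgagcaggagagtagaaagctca
Epha4: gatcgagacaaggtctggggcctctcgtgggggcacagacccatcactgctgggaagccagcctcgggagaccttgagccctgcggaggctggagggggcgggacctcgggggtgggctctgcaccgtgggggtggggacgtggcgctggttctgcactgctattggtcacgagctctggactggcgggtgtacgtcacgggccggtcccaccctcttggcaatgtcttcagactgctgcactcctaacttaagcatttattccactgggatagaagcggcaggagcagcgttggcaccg
Sema3e: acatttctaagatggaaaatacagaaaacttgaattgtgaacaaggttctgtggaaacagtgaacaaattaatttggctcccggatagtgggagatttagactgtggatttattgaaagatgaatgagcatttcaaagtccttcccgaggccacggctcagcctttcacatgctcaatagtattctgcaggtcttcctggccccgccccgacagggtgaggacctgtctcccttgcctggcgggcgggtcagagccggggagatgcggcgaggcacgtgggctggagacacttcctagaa
The letters were searched after earlier results were known. The Plxna2 window held 1 GATA match and the Efnb1, Epha4 and Sema3e windows held none, and none of the 4 held the octamer. Over all 45 members with a window, 8 of 59 windows held a GATA match, against 29.8% of the 32851 windows of all genes, and 0 of 59 held the octamer, against 1.74%. The Plxna2 and Epha4 windows were rich in G and C (64.7% and 64%), the Efnb1 window had 59.7% and the Sema3e window 50.7%, against a median of 52.7% over all windows. A match is a run of letters and does not show binding, and its absence says only that these letters are not in the window.

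Lineages were compared with edgeR's quasi-likelihood test on class sums, with library as a block and Benjamini-Hochberg adjustment over all genes tested. Epiblast-, endoderm- and trophoblast-like cells were compared over 5 libraries, E4.5 to E5.5. The p-values measure the spread of a difference over stages and no spread between embryos of 1 stage, and a called gene can still differ in size or direction in a single library. Cells were named from other genes of the same cells. In trophoblast-like over epiblast-like cells, 34 of 45 members tested were called, 15 higher and 19 lower, where 62.7% of all genes were called (31% higher and 31.8% lower). The trophoblast-like over endoderm-like comparison called 29 of 45, 11 higher and 18 lower, against 59.7% of all genes (31% higher and 28.7% lower). The epiblast-like over endoderm-like comparison called 27 of 45, 14 higher and 13 lower, against 69.4% of all genes (37.8% higher and 31.5% lower). Thinned to 3000 UMIs a cell, the calls were 19 in trophoblast-like over epiblast-like and 17 in epiblast-like over endoderm-like cells, each of 29 tested. Most genes differ between these lineages, and the members' counts were near that background. The median size of the members' log2 difference was 1.55, 1.26 and 1.18 in the 3 comparisons, against 0.75, 0.73 and 0.89 over all genes. The median signed difference of all genes was 0.14 on the log2 scale in epiblast-like over endoderm-like cells and within 0.05 of 0 in the other 2.

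Among the secreted ligands, Sema3e, which repels endothelial cells and axons, was a trophoblast and epiblast transcript. Trophoblast-like cells held 15.7, 111, 148, 67.4, 62.0 and 69.5 CPM of Sema3e from E3.5 to E5.5, and epiblast-like cells held 6.31, 29.0, 59.7, 70.1, 71.1 and 65.0 CPM. Endoderm-like cells stayed between 1.87 and 5.53 CPM from E4.5 on, below every value of the other classes in those libraries. Over endoderm-like cells, Sema3e was higher by a log2 of 5.38 ± 0.44 (SE, 5 libraries) in trophoblast-like cells (edgeR adjusted p = 1.24e-06) and by 4.62 ± 0.43 in epiblast-like cells (edgeR adjusted p = 2.38e-06). The trophoblast-like and epiblast-like ranges overlapped, and their difference of 0.76 ± 0.35 on the log2 scale was not called (edgeR adjusted p = 0.078).

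Sema3f, a neuropilin-2 ligand, was narrower in its range. It stood at 37.6, 32.1, 13.9, 15.3 and 29.1 CPM in trophoblast-like cells from E4.5 to E5.5, against 1.74 to 5.71 CPM in epiblast-like and 0.191 to 1.84 CPM in endoderm-like cells. Every trophoblast-like value lay above every value of the other 2 classes. The log2 difference over epiblast-like cells was 2.78 ± 0.39 (SE, 5 libraries; edgeR adjusted p = 7.8e-05). The other 5 class 3 genes stayed below 10 CPM in these classes, with Sema3c at most 6.03 CPM.

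Of the membrane-bound ligands, Sema6a, which binds plexin-A2 and plexin-A4, showed the steepest course in the epiblast. Trophoblast-like cells held 2.41, 3.76, 7.64, 2.74, 3.84 and 40.9 CPM of Sema6a from E3.5 to E5.5. Epiblast-like cells held 1.26, 53.6, 109, 233.7, 328 and 346 CPM over the same stages, and endoderm-like cells 84.1, 176, 138, 139.9 and 165 CPM from E4.5. The endoderm level was the higher one up to E4.75 and the epiblast level from E5.0 on, and the difference of epiblast-like over endoderm-like cells was not called (log2 0.56 ± 0.49, edgeR adjusted p = 0.32). Trophoblast-like cells were the lowest in all 5 tested libraries, by a log2 of -4.43 ± 0.58 against epiblast-like cells (edgeR adjusted p = 4.6e-05) and -3.87 ± 0.57 against endoderm-like cells (edgeR adjusted p = 0.00011). Without the E5.5 library these were -5.16 and -4.73. At E5.0, with each cell thinned to 3000 UMIs, 1.25% of trophoblast-like cells carried a Sema6a UMI (95% exact binomial interval 0.602 to 2.29%), against 46.7% of epiblast-like cells (44.4 to 49.0%). The unthinned shares were 4.74% and 90.9%.

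Sema5a, a guidance ligand with thrombospondin repeats, was highest at E3.5, with 65.1 CPM in trophoblast-like cells (95% Poisson interval 48.9 to 84.9) and 116 CPM in epiblast-like cells (93.6 to 142). From E4.5 on, Sema5a lay between 12.5 and 34.2 CPM in trophoblast-, epiblast- and endoderm-like cells, with overlapping ranges. Sema4c, a plexin-B2 ligand, stood at 43.9, 47.9, 11.4, 9.67 and 16.1 CPM in trophoblast-like cells from E4.5 to E5.5, against 4.35 to 13.1 CPM in epiblast-like and 3.06 to 8.28 CPM in endoderm-like cells. Sema4g ran the other way, at most 6.36 CPM in trophoblast- and epiblast-like cells and 21.1 to 35.1 CPM in endoderm-like cells from E4.5. Sema4d, another plexin-B ligand, was called higher in trophoblast-like than in epiblast-like and in endoderm-like cells, at 37.5 to 47.7 CPM in trophoblast-like, 25.2 to 54.0 CPM in epiblast-like and 13.6 to 22.3 CPM in endoderm-like cells.

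Among the plexins, Plxna2, a receptor for class 3 and class 6 semaphorins, was an endoderm transcript. Trophoblast-like cells held 6.58, 6.20, 2.83, 3.76 and 5.31 CPM of Plxna2 from E4.5 to E5.5, and epiblast-like cells 2.03, 1.03, 0.746, 0.862 and 1.56 CPM. Endoderm-like cells held 19.5, 123, 156, 169 and 129.8 CPM in the same libraries. No library overlapped between endoderm-like cells and the other classes, with log2 differences of -6.60 ± 0.57 in epiblast-like over endoderm-like cells (edgeR adjusted p = 1.35e-06) and -4.23 ± 0.50 in trophoblast-like over endoderm-like cells (edgeR adjusted p = 1.92e-05). At E5.0, thinned to 3000 UMIs, a Plxna2 UMI was seen in 0.157% of epiblast-like cells (0.0324 to 0.459%) and in 35.5% of endoderm-like cells (33.1 to 37.9%). The unthinned shares were 1.47% and 81.3%.

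The other plexins were either broad or scarce. Plxnb2 was detected at 16.2 to 91.4 CPM in trophoblast-, epiblast- and endoderm-like cells from E4.5 to E5.5 and was called lower in epiblast-like and in trophoblast-like than in endoderm-like cells. Plxnb1 was called higher in epiblast-like than in endoderm-like cells, at 6.63 to 13.9 CPM against 0.191 to 2.03 CPM. Plxnd1, the receptor of Sema3e, did not pass 3.78 CPM in any class. Of the co-receptors, Nrp2, neuropilin-2, stood at 62.0, 45.9, 15.7, 14.9 and 11.2 CPM in trophoblast-like cells from E4.5 to E5.5, against 2.31 to 7.24 CPM in epiblast-like cells, a log2 difference of 3.20 ± 0.52 (edgeR adjusted p = 0.000209). Nrp1, neuropilin-1, was at most 0.683 CPM in trophoblast-like, 0.232 CPM in epiblast-like and 20.8 CPM in endoderm-like cells from E4.5.

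Among the A-type ephrins, Efna5, which binds EphA receptors and also EphB2, was shared by epiblast and endoderm. Trophoblast-like cells held no Efna5 UMI at E3.5 and 0.627, 3.46, 2.12, 3.12 and 15.5 CPM from E4.5 on. Epiblast-like cells held 6.31, 25.8, 43.0, 71.9, 114 and 124 CPM from E3.5 to E5.5, and endoderm-like cells 4.21, 21.3, 121, 223 and 203 CPM from E4.5. The trophoblast-like value was below both others in each library. The log2 difference was -4.10 ± 0.59 in trophoblast-like over epiblast-like cells (edgeR adjusted p = 8.4e-05) and -3.97 ± 0.59 in trophoblast-like over endoderm-like cells (edgeR adjusted p = 0.000109; -3.36 without E5.25), while the difference between epiblast- and endoderm-like cells was not called.

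Efna3 and Efna4, from the same ligand family, were lowest in epiblast-like cells among the main lineages from E4.5 on. Efna3 stood at 10.96, 18.6, 34.8, 32.9 and 23.5 CPM in trophoblast-like cells from E4.5, against 1.45 to 2.43 CPM in epiblast-like cells, and at 27.2, 11.45, 3.93, 4.92 and 6.45 CPM in endoderm-like cells. Trophoblast- and endoderm-like ranges overlapped through E4.5, yet Efna3 was called higher in trophoblast-like cells over both (log2 3.82 ± 0.55 over epiblast-like cells, edgeR adjusted p = 8.7e-05, and 1.85 ± 0.53 over endoderm-like cells, edgeR adjusted p = 0.0103). The call over endoderm-like cells was lost without E5.0 (1.41), E5.25 (1.503) or E5.5 (1.66), and the log2 difference was 2.50 without E4.5. Efna4 lay at 20.1 to 42.3 CPM in trophoblast-like, 8.11 to 18.2 CPM in epiblast-like and 26.3 to 51.1 CPM in endoderm-like cells from E4.5, and was called lowest in the epiblast in both of its comparisons.

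Of the B-type ephrins, Efnb1 was mainly an endoderm transcript from E4.5 on, while Efnb2 was present in every lineage. Efnb1, a ligand and reverse-signalling partner of EphB receptors, held 77.1 CPM in trophoblast-like cells at E3.5 (Poisson interval 59.4 to 98.5) and then 15.4, 2.40, 1.64, 2.75 and 4.36 CPM. From E4.5 on, epiblast-like cells held 1.16, 1.44, 1.00, 0.796 and 1.203 CPM, against 52.6, 127, 108.5, 98.6 and 118 CPM in endoderm-like cells. Efnb1 was lower in epiblast-like than in endoderm-like cells by a log2 of -6.30 ± 0.54 (edgeR adjusted p = 1.34e-06) and in trophoblast-like than in endoderm-like cells by -4.37 ± 0.50 (edgeR adjusted p = 1.63e-05; -4.99 without E4.5).

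Efnb2, the EphB4 ligand known from arteries and the placenta, was highest in trophoblast-like cells in 4 of the 5 tested libraries. It held 147 CPM at E3.5 (Poisson interval 122 to 176) and 58.3, 46.9, 113, 106 and 83.4 CPM from E4.5 to E5.5 in trophoblast-like cells. Epiblast-like cells held 12.6, 41.7, 62.0, 43.9, 36.8 and 43.7 CPM from E3.5, and endoderm-like cells 19.1, 36.3, 31.4, 20.6 and 28.4 CPM from E4.5. At E4.75 the epiblast-like value was above the trophoblast-like one, and over 5 libraries the log2 difference of trophoblast-like over epiblast-like cells was 1.04 ± 0.25 (edgeR adjusted p = 0.00327) and over endoderm-like cells 1.99 ± 0.26 (edgeR adjusted p = 3.99e-05).

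Of the EphA receptors, Epha4, which binds ephrins of both types, was high in different lineages at different stages. Trophoblast-like cells held 1.86 to 11.7 CPM of Epha4. Epiblast-like cells held 198 CPM at E3.5 (Poisson interval 168 to 231.5, from 44 cells that also carried parietal endoderm markers), then 64.9, 25.3, 4.81, 6.17 and 12.5 CPM. Endoderm-like cells held 49.0, 83.3, 141, 166 and 193 CPM from E4.5 to E5.5. The epiblast level was above the endoderm level at E4.5 and below it in the 4 later libraries. The log2 difference of epiblast-like over endoderm-like cells was -2.93 ± 0.72 (edgeR adjusted p = 0.00322), and of trophoblast-like over endoderm-like cells -4.48 ± 0.72 (edgeR adjusted p = 0.000202). The first was -3.70 without E4.5 and -2.31 without E5.0.

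Of the EphB receptors, Ephb1 held 0.151 to 4.15 CPM in trophoblast-like cells from E4.5, against 1.74, 24.8, 22.9, 19.4 and 34.9 CPM in epiblast-like cells and 13.4, 20.3, 27.7, 40.5 and 54.0 CPM in endoderm-like cells. Ephb1 was lower in trophoblast-like cells than in either (log2 -4.47 ± 0.62 against epiblast-like cells, edgeR adjusted p = 7e-05, and -4.95 ± 0.63 against endoderm-like cells, edgeR adjusted p = 3.5e-05). Without E5.5 these were -5.50 and -6.08. Genes on the opposite strand cover the 3' ends of Ephb1, Ephb4, Epha1 and Plxna1, and the files do not say whether counts were made by strand, so the levels of these 4 may include reads of the other gene. Ephb4, the ephrin-B2 receptor, was called lower in trophoblast-like cells than in both others, at 2.82 to 13.4 CPM against 16.2 to 23.0 CPM in epiblast-like and 15.9 to 35.0 CPM in endoderm-like cells. Ephb2 and Ephb3 stayed at or below 26.1 CPM in the 3 main lineages from E4.5, and Ephb3 held 45.4 CPM in E3.5 epiblast-like cells (31.8 to 62.9).

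**Figure D2:**
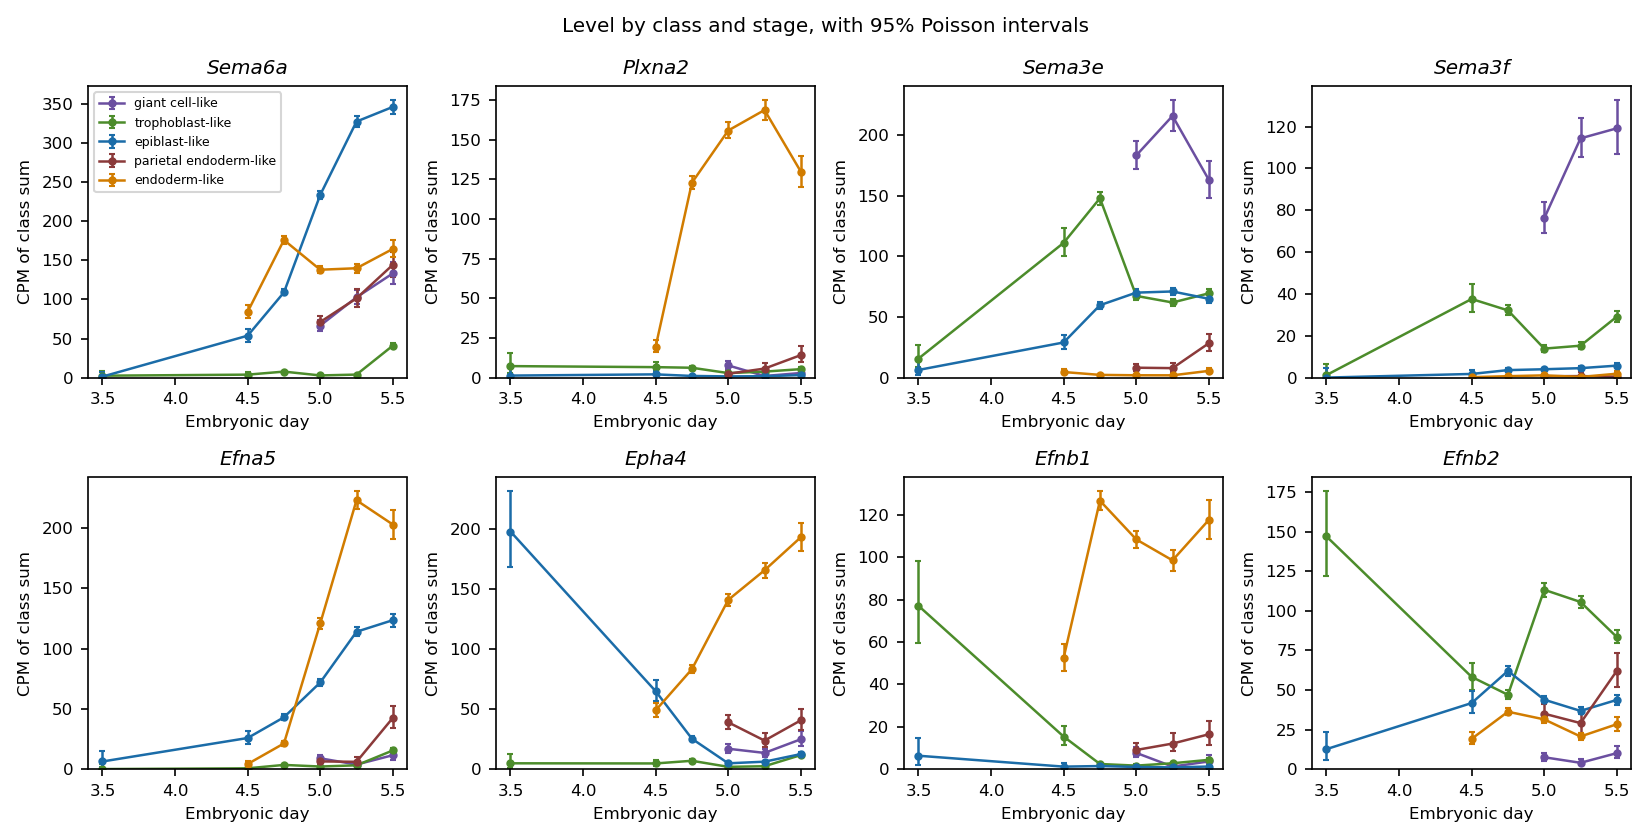
CPM of 8 members against embryonic day, with 1 line for each class and 95% Poisson intervals of each class sum as bars, which cover counting error only. Plxna2 and Efnb1 run high in endoderm-like cells, Sema3f in giant cell-like cells, and Epha4 is 12.5 CPM in epiblast-like cells and 193 CPM in endoderm-like cells at E5.5.

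**Figure D3:**
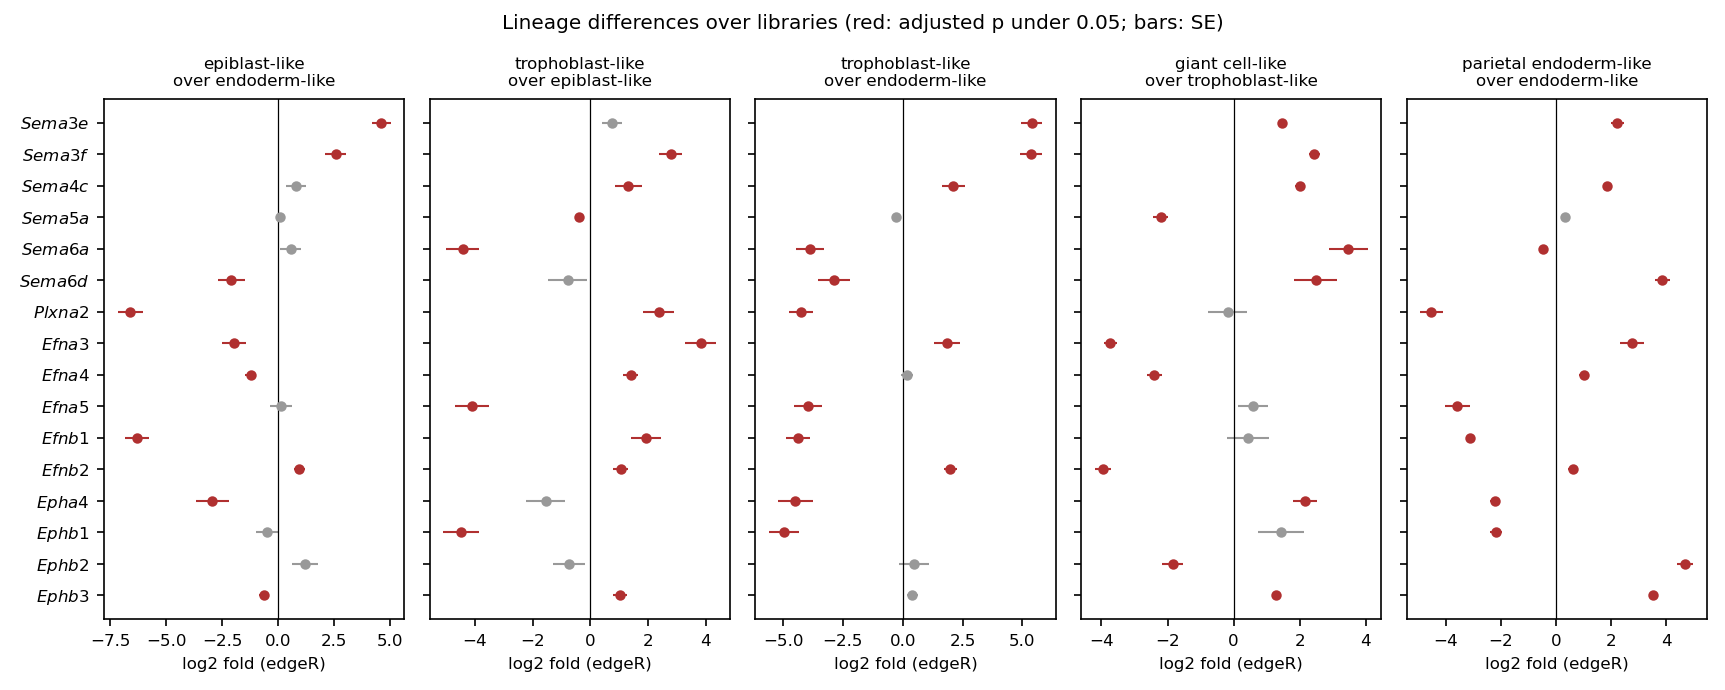
edgeR log2 differences of the 16 members given library by library, in 5 lineage comparisons (5 libraries in the left 3 panels, 3 in the right 2), with SE bars and red points for an adjusted p under 0.05. In the giant cell panel Sema6a (3.47) and Sema3f (2.44) lie to the right and Efnb2 (-3.95) and Efna3 (-3.73) to the left.

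Giant cell-like cells were set against trophoblast-like cells in the E5.0, E5.25 and E5.5 libraries. Of 33 members tested, 24 were called, 13 higher and 11 lower, where 41.2% of all genes were called (20.3% higher and 20.9% lower). Of the members tested, 13 were called with a difference of 4-fold or more, which is 39.4% of them, against 5.14% of all genes. Of the secreted semaphorins, Sema3e and Sema3f were called higher. Sema3e held 183, 216 and 163 CPM in giant cell-like cells, against 67.4, 62.0 and 69.5 CPM in trophoblast-like cells (log2 1.47 ± 0.11, SE, 3 libraries; edgeR adjusted p = 0.000219). Sema3f held 76.2, 114 and 119 CPM in giant cell-like cells, against 13.9, 15.3 and 29.1 CPM (log2 2.44 ± 0.16, edgeR adjusted p = 0.000161). For both genes every giant cell-like value was above every trophoblast-like one. Sema3b, scarce throughout, was called lower, at 0.911, 0.198 and 0.360 CPM in giant cell-like cells, against 2.30, 2.71 and 2.58 CPM (log2 -2.32 ± 0.53, edgeR adjusted p = 0.0134). That call was lost without E5.25 (-1.85), and the other 4 class 3 genes were not tested.

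Membrane semaphorins split in giant cell-like cells. Sema6a held 66.5, 103 and 133 CPM in giant cell-like cells, against 2.74, 3.84 and 40.9 CPM in trophoblast-like cells (log2 3.47 ± 0.59, edgeR adjusted p = 0.00425; 4.62 without E5.5 and 2.88 without E5.25). Sema4c held 54.3, 46.0 and 47.5 CPM, against 11.4, 9.67 and 16.1 CPM (log2 2.00 ± 0.15, edgeR adjusted p = 0.000203), and Sema7a, anchored by a lipid and known for binding integrins, held 9.84, 14.7 and 24.1 CPM, against 0.841, 1.39 and 3.42 CPM. Sema5a and Sema4d were called lower, with Sema5a at 4.56, 3.97 and 3.24 CPM in giant cell-like cells, against 13.1, 20.6 and 23.9 CPM in trophoblast-like cells (log2 -2.21 ± 0.23, edgeR adjusted p = 0.000685). None of these 5 genes had overlapping ranges, and the share of all genes without overlap is not given.

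Of the 8 ephrins, 4 were called lower in giant cell-like cells and none higher. Efnb2 held 7.47, 3.97 and 10.1 CPM in giant cell-like cells, against 113, 106 and 83.4 CPM in trophoblast-like cells (log2 -3.95 ± 0.25, edgeR adjusted p = 0.000155). Efna3 held 3.65, 1.59 and 1.80 CPM, against 34.8, 32.9 and 23.5 CPM (log2 -3.73 ± 0.21, edgeR adjusted p = 0.000127), and Efna4 and Efna1 were called lower as well. Efna2, Efna5, Efnb1 and Efnb3 were not called. Among receptors Epha4, Ephb3 and Plxnb2 were called higher and Ephb2 lower. Epha4 held 16.95, 13.5 and 24.9 CPM in giant cell-like cells, against 1.86, 2.37 and 11.7 CPM in trophoblast-like cells (log2 2.17 ± 0.37, edgeR adjusted p = 0.00437; 2.78 without E5.5). Endoderm-like cells of these libraries held 141, 166 and 193 CPM of Epha4, and the 9 endoderm markers, all with counts, summed to 622, 57.5 and 181.9 CPM in giant cell-like cells, against 66.7, 49.2 and 271 CPM in trophoblast-like cells. Without E5.0 the log2 difference of Epha4 was 1.70 and still called, and the part of endoderm transcripts in it was not tested. Calls for Plxna1, Epha2, Epha1 and Plxnd1 were lost without E5.25, where their log2 differences were 0.44, 0.26, -0.73 and -1.34. So were those for Sema3b, Sema4a and Sema6d (-1.85, -3.32 and 2.06). With each library clustered alone 10 members were called in this comparison, of 27 tested, and with cells thinned to 3000 UMIs 15 of 20.

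Parietal endoderm-like cells were set against endoderm-like cells in the same 3 libraries. Of 32 members tested, 20 were called, 11 higher and 9 lower, where 43.6% of all genes were called (21.5% higher and 22.1% lower). Differences of 4-fold or more were called for 12 members, 37.5% of those tested, against 9.34% of all genes. Ephb2 held 52.9, 82.2 and 51.1 CPM in parietal endoderm-like cells, against 3.59, 1.93 and 1.47 CPM in endoderm-like cells (log2 4.68 ± 0.30, SE, 3 libraries; edgeR adjusted p = 6.1e-05). Ephb3 held 92.3, 89.7 and 74.9 CPM, against 7.99, 8.28 and 7.18 CPM (log2 3.52 ± 0.12, edgeR adjusted p = 9e-06). These 2 receptors of B-type ephrins stood apart without overlap, and Ephb2 was at 5.36 without E5.0.

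Among the ligands, Sema6d, a plexin-A1 ligand, was called higher in parietal endoderm-like cells. It held 101, 139 and 72.2 CPM there, against 4.69, 9.71 and 9.95 CPM in endoderm-like cells (log2 3.86 ± 0.27, edgeR adjusted p = 8.5e-05). Plxna1 itself held 81.0, 77.6 and 55.7 CPM, against 22.9, 19.7 and 24.1 CPM (log2 1.77 ± 0.17, edgeR adjusted p = 0.000263). Efna4 held 101.5, 61.7 and 61.6 CPM, against 36.2, 37.0 and 42.4 CPM (log2 1.02 ± 0.19, edgeR adjusted p = 0.00558), and Efna3 54.6, 25.9 and 16.0 CPM, against 3.93, 4.92 and 6.45 CPM (log2 2.77 ± 0.44, edgeR adjusted p = 0.00253). All 4 genes were higher in each library, and the log2 difference of Efna3 was 1.96 without E5.0.

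The leading guidance genes of the visceral endoderm were lower in parietal endoderm-like cells. Plxna2 held 2.42, 5.67 and 14.2 CPM in parietal endoderm-like cells, against 156, 169 and 129.8 CPM in endoderm-like cells (log2 -4.52 ± 0.40, edgeR adjusted p = 0.000214). Efnb1 held 9.03, 12.1 and 16.4 CPM, against 108.5, 98.6 and 118 CPM (log2 -3.12 ± 0.16, edgeR adjusted p = 3e-05). Efna5 held 6.39, 6.03 and 42.5 CPM, against 121, 223 and 203 CPM (log2 -3.58 ± 0.46, edgeR adjusted p = 0.00101). Epha4 and Ephb1 were also called lower. The scarcer Sema7a held 0, 0.354 and 1.83 CPM, against 12.3, 8.09 and 6.81 CPM (log2 -4.05). The E5.5 parietal sum stood apart for Efna5 and Sema3e (28.3 CPM, against 8.15 and 7.80 CPM before), cluster 22 held 144 of its 437 cells, and its summed epiblast markers were 435 CPM, against 180 and 130 CPM in the parietal sums of E5.0 and E5.25. Without E5.5 the log2 difference was -4.62 for Efna5 and -5.38 for Plxna2. The rest of the E5.5 parietal cells were cluster 13. At E5.5 Efna5 held 32.4 CPM in cluster 13 and 58.8 CPM in cluster 22, Sema3e 12.5 and 54.0, and Plxna2 21.4 and 2.40 CPM. Epiblast-like cells of that library held 124 CPM of Efna5, 65.0 CPM of Sema3e and 1.56 CPM of Plxna2. The part of the epiblast transcripts in the result was not tested.

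Clusters within a lineage carried different guidance genes. From E5.0 to E5.5 the endoderm-like cells fell mainly into cluster 20, led by Sfrp1, Lhx1 and Lefty1, cluster 12, led by Apoc2, Nrk and Apoa4, and cluster 11, led by Apoa1, Ttr and Apob. Efna5 was not used to form the clusters, and held 346, 600 and 577 CPM in cluster 20, 6.0, 6.3 and 23.3 CPM in cluster 12, and 52.5, 60.1 and 81.4 CPM in cluster 11. Efnb1 ran the other way, at 57.0, 45.1 and 38.6 CPM in cluster 20, 133, 128 and 156 CPM in cluster 12, and 125, 124 and 136 CPM in cluster 11. Ephb1 held 41.8, 64.1 and 82.3 CPM in cluster 20, 24.9, 27.5 and 40.3 CPM in cluster 12, and 22.6, 29.3 and 45.2 CPM in cluster 11. At E5.5 cluster 11 had only 33 cells. Its Poisson intervals there were 48.3 to 129 CPM for Efna5, 91.5 to 194 CPM for Efnb1 and 21.7 to 83.2 CPM for Ephb1. Sema6a was lower in cluster 20 (83.4 to 88.0 CPM) than in cluster 12 (190 to 211 CPM) in each of the 3 libraries, as was Efnb2 (10.8 to 15.9 CPM, against 23.4 to 35.4 CPM). These cluster values are descriptions, with no test, since the clusters were drawn from the same cells.

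Trophoblast-like cells were held by different clusters in different libraries: cluster 0 at E3.5 and E4.5, cluster 5 at E4.75, cluster 8, led by Inpp1, Rbm20 and Cdx2, at E5.0 and E5.25, and clusters 8 and 21 at E5.5, with cluster 21 led by Phlda2, Ascl2 and Hand1. At E5.5 Efnb2 stood at 21.7 CPM in cluster 21 (Poisson interval 18.8 to 25.1) and 139 CPM in cluster 8 (131.5 to 146). Sema6a stood at 79.0 CPM in cluster 21 and 8.53 CPM in cluster 8, so the E5.5 trophoblast-like level of 40.9 CPM was an average of unlike clusters. Sema3f held 54.9 CPM in cluster 21 and 6.15 CPM in cluster 8, Sema3e 103 and 40.1 CPM, and Sema4c 27.1 and 6.35 CPM. For these 5 genes cluster 21 lay on the giant cell-like side of cluster 8. Summed endoderm markers in trophoblast-like cells were 271 CPM at E5.5, against 49.2 CPM at E5.25, and the part of those transcripts in the E5.5 values was not tested.

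**Figure D4:**
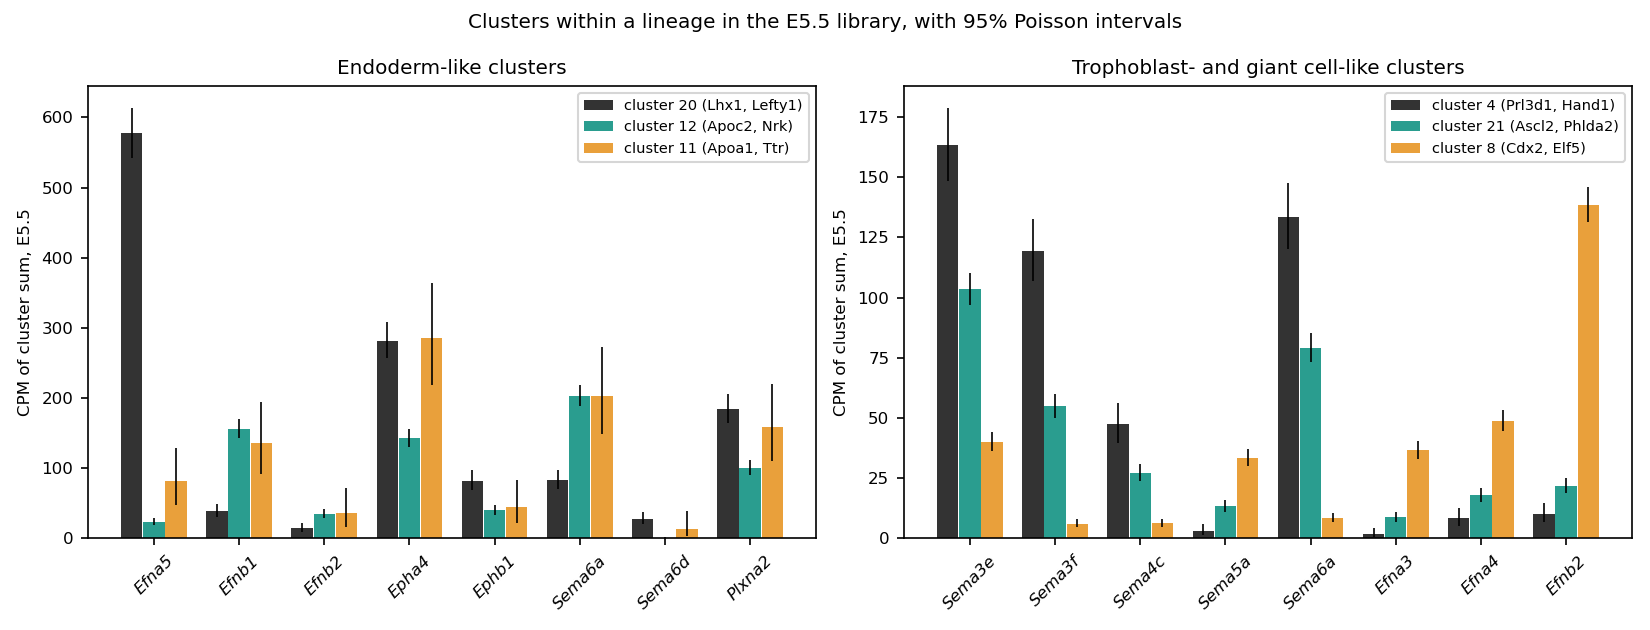
CPM in clusters of the E5.5 library, with 95% Poisson intervals: endoderm-like clusters 20, 12 and 11 on the left, giant cell-like cluster 4 and trophoblast-like clusters 21 and 8 on the right. Efna5 reaches 577 CPM in cluster 20 and 23.3 CPM in cluster 12, and Efnb2 139 CPM in cluster 8 and 10.1 CPM in cluster 4.

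Between stages, values are ratios of class sums from 1 library each, and different clusters hold a class at different stages. Epiblast-like cells were mainly cluster 3 at E4.5, cluster 6 at E4.75, clusters 15 and 14 at E5.0 and E5.25 and cluster 16 at E5.5. Endoderm-like cells were mainly cluster 2 at E4.5 and cluster 10 at E4.75, and clusters 11, 12 and 20 later. E5.5 and E4.5 were both filtered at 20 µm but collected from females of different ages and by different means. In epiblast-like cells, 14 of 21 members at 10 CPM or more differed by at least 2-fold between E5.5 and E4.5, 11 higher and 3 lower, where 31% of all genes did (13% higher and 18% lower). Sema6a was 6.46-fold and Efna5 4.79-fold higher at E5.5. Ephb1 was 20.1-fold higher, from 6 UMIs at E4.5 (1.74 CPM, Poisson interval 0.638 to 3.78). Sema3e, Sema5a, Sema4c, Plxna1, Plxnb2, Epha1, Efna2 and Efna4 were also at least 2-fold higher. Epha4 was 5.19-fold lower, and Sema4b and Epha10 were lower as well. The members' median log2 ratio was 1.01, against 0.02 over all genes. Set against E4.75, a stage dissected like E5.5 and compared after the data were seen, 6 of 20 members differed in epiblast-like cells, 4 higher and 2 lower, where 12.9% of all genes did (4.74% higher and 8.14% lower). Higher at E5.5 were Sema6a, Efna5, Plxna1 and Plxnb1, and lower were Epha4 and Sema5b. Ephb1 stood at 24.8 CPM at E4.75 and 34.9 CPM at E5.5 and did not differ by 2-fold. In endoderm-like cells 4 of 19 differed, 4 higher and 0 lower, against 10% of all genes (5.45% higher and 4.55% lower), and in trophoblast-like cells 4 of 19, 2 higher and 2 lower, against 9.62% (5% higher and 4.63% lower). The 4 in endoderm-like cells were Efna5, Epha4, Ephb1 and Plxnb2.

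In endoderm-like cells, 11 of 21 members differed between E5.5 and E4.5, 7 higher and 4 lower, where 29.6% of all genes did (17.2% higher and 12.4% lower). Efna5 was 48.3-fold higher at E5.5 (203 CPM, Poisson interval 191 to 215) than at E4.5 (4.21 CPM, 2.64 to 6.37). Plxna2 was 6.66-fold, Ephb1 4.03-fold, Epha4 3.95-fold and Efnb1 2.24-fold higher, with Plxnb2 and Ephb4. Plxna2 and Efnb1 already stood at 123 and 127 CPM at E4.75, against 129.8 and 118 CPM at E5.5. The lower genes were Ephb2, 16.0-fold, Efna3, 4.21-fold, Ephb3, 3.43-fold, and Epha10, and the first 3 were among those high in parietal endoderm-like cells. The E4.5 cells, nearly all of cluster 2, held markers of both endoderm classes, with summed parietal endoderm markers in endoderm-like cells ranging from 2507 to 7525 CPM over the libraries. The part of parietal endoderm transcripts in these stage ratios was not tested.

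In trophoblast-like cells, 11 of 21 members differed between E5.5 and E4.5, 7 higher and 4 lower, where 25.8% of all genes did (12.4% higher and 13.4% lower). Sema6a was 10.9-fold and Efna3 2.14-fold higher at E5.5, and Sema4c 2.72-fold and Efnb1 3.52-fold lower. The Sema6a ratio rests on 12 UMIs at E4.5, and at E5.5 Sema6a stood at 79.0 CPM in cluster 21 and 8.53 CPM in cluster 8. Efna5 was also higher, from 2 UMIs at E4.5 (0.627 CPM, Poisson interval 0.0759 to 2.26) to 15.5 CPM at E5.5.

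Within the dissected, unfiltered embryos fewer members differed. Between E5.25 and E4.75, 5 of 20 differed in epiblast-like cells, 2 higher and 3 lower, where 9.83% of all genes did (2.31% higher and 7.52% lower). In endoderm-like cells 3 of 20 differed, 1 higher and 2 lower, against 7.2% of all genes (4.27% higher and 2.93% lower). In trophoblast-like cells 4 of 16 differed, 1 higher and 3 lower, against 10.3% (3.46% higher and 6.79% lower). Sema6a was 3.00-fold and Efna5 2.65-fold higher at E5.25 in epiblast-like cells, where Epha4 was 4.10-fold lower, and Efna5 was 10.5-fold higher in endoderm-like cells. That class value joins unlike clusters, since at E5.25 Efna5 held 600 CPM in cluster 20, 60.1 CPM in cluster 11 and 6.3 CPM in cluster 12, the last below the 21.2 CPM of cluster 10 at E4.75. In trophoblast-like cells Efnb2 was 2.25-fold higher, and Sema4c, Sema3e and Sema3f were 4.95-, 2.39- and 2.11-fold lower at E5.25, when cluster 8 held most cells, than at E4.75, when cluster 5 did. Inside cluster 5 Sema3e was 154, 117 and 104 CPM from E4.75 to E5.25, Sema3f 32.4, 35.8 and 42.3 CPM, and Efnb2 47.7, 9.3 and 10.1 CPM. The direction inside that cluster was opposite to the class for Efnb2 and Sema3f.

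Between E4.5 and E3.5, 13 of 18 members differed in epiblast-like cells, 8 higher and 5 lower, where 34.6% of all genes did (16.4% higher and 18.2% lower). In trophoblast-like cells 11 of 17 differed, 6 higher and 5 lower, against 29.5% (14.7% higher and 14.8% lower). Sema3e, Epha2 and Sema4d were higher at E4.5 in both classes and Sema5a was lower in both. The E3.5 sums rest on 44 and 42 cells, and the epiblast-like sum also carried 1493 CPM of parietal endoderm markers.

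Genes around the families were counted in 4 lists. Of 11 semaphorin co-receptors tested, 6 were higher and 2 lower in trophoblast-like over epiblast-like cells, with a median log2 of 1.21 against 0.00 over all genes, of which 31% were higher and 31.8% lower. Ptk7, a pseudokinase of the planar polarity pathway, averaged 14.2 CPM in trophoblast-like and 65.6 CPM in epiblast-like cells and was one of the lower genes (log2 -2.12 ± 0.23, edgeR adjusted p = 1.02e-05). Timd2, a Sema4a receptor, averaged 0.284 CPM in epiblast-like and 73.4 CPM in endoderm-like cells over 5 libraries (log2 -8.04 ± 0.54, edgeR adjusted p = 2.32e-07). Itga1, a subunit of the integrin that Sema7a binds, averaged 52.6 CPM in giant cell-like and 2.98 CPM in trophoblast-like cells (log2 4.21 ± 0.24, edgeR adjusted p = 0.000127).

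Of 26 plexin effectors tested, 17 were higher and 6 lower in trophoblast-like over epiblast-like cells (median log2 0.81), against the same 31% and 31.8% of all genes. In giant cell-like over trophoblast-like cells 8 of 25 were higher and 3 lower, against 20.3% and 20.9% of all genes, among them Limk1, a kinase that acts on cofilin, at 84.9, 122 and 110 CPM against 14.6, 14.6 and 21.8 CPM, and Mical2, an actin-oxidising enzyme, both higher. Of 19 Eph effectors, 9 were higher and 5 lower in trophoblast-like over epiblast-like cells, where 62.7% of all genes were called. Chn1, a Rac-inactivating protein downstream of Epha4, averaged 82.9 CPM in epiblast-like and 9.52 CPM in endoderm-like cells (log2 3.30 ± 0.19, edgeR adjusted p = 9.66e-08).

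Of 18 genes tested from the other guidance families, slits, robos, netrins, Unc5 receptors and Flrt proteins, 1 was higher and 12 were lower in trophoblast-like over epiblast-like cells, with a median log2 of -1.51, against 31% and 31.8% of all genes. In parietal endoderm-like over endoderm-like cells 5 of 10 were higher and 4 lower, where 21.5% and 22.1% of all genes were. Robo2, a slit receptor, held 236, 394 and 281 CPM in parietal endoderm-like cells, against 1.01, 8.46 and 2.39 CPM in endoderm-like cells (log2 6.56 ± 0.41, edgeR adjusted p = 5.5e-05), and Robo1 and Flrt2 were higher as well. Ntn1, netrin-1, averaged 10.7 CPM in parietal endoderm-like and 227 CPM in endoderm-like cells (log2 -4.48 ± 0.32, edgeR adjusted p = 9.07e-05).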

How the data were processed

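The authors deposited raw UMI counts per gene and barcode for 6 libraries, 1 per stage, which per the file headers Cell Ranger 7.1.0 produced, and the libraries were made with 10x 3′ v3.1 chemistry per the labels' protocols. The builds mm10, GRCm38 and hg38 are named without roles in the submitters' processing notes. Neither the annotation nor the use of strand and introns in counting is stated. The members and gene lists were chosen with earlier results of these data known.

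Cells with at least 1500 genes and at most 15% mitochondrial counts were kept, and cells with the highest Scrublet scores were removed (0.8% per 1000 cells, at most 8%). Counts were scaled to 10000 per cell, and 2000 variable genes without the members, 30 components, 15 neighbours and Leiden at resolution 1.0 gave the clusters (scanpy 1.11.5). A cluster was named when at least 3 markers of a class stood 2-fold above the mean of clusters and its score led. Clusters between related classes took the broader class or stayed undivided, a rule set after the clusters were seen. The undivided cluster held 963 cells, and it, the unnamed clusters and 79 uterine epithelium-like cells stayed out of the classes. Class sums of at least 30 cells were tested with edgeR 4.0.16 (TMM, quasi-likelihood, Benjamini-Hochberg, threshold 0.05), checked on simulated data. Stage ratios needed 2-fold and 10 CPM at the higher stage, with 0 counts taken as 3. Intervals are 95% exact Poisson or Clopper-Pearson intervals and cover counting error only. Total counts per library ranged from 1788882 to 112702098 over all deposited barcodes, before filtering.

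Members were given library by library when they reached 50 CPM in a class and differed 4-fold in a called lineage comparison or between E5.5 and E4.5, and others by ranges and counts. The comparisons share classes and libraries. All 54 members matched GENCODE M21, and promoter windows are from RefSeq (GRCm38.p6). Pairs of libraries shared 0 to 12 barcodes of kept cells. Alternatives covered cell filters, clustering, scaling, thresholds, DESeq2 1.42.0, leaving out libraries and thinning to 3000 UMIs.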

Additional observations from a re-analysis of the deposited data

Results flagged for a closer look

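Epha4 went opposite ways between E5.5 and E4.5 in different lineages. Its log2 ratio was -2.38 in epiblast-like cells (12.5 CPM at E5.5 and 64.9 CPM at E4.5) and 1.98 in endoderm-like cells (193 CPM at E5.5 and 49.0 CPM at E4.5), and the difference between the lineages was not tested.

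Efna3 also moved in opposite directions, with a log2 ratio of 1.10 in trophoblast-like cells (23.5 CPM at E5.5, Poisson interval 21.3 to 25.7, and 10.96 CPM at E4.5, 7.64 to 15.3) and -2.08 in endoderm-like cells (6.45 CPM at E5.5, 4.49 to 8.97, and 27.2 CPM at E4.5, 22.9 to 32.0). That difference was not tested either.

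A uterine epithelium-like cluster of 79 cells, 38 of them from E4.75, lay outside the embryonic classes and carried 3 members at 50 CPM or more and at least 2-fold above every embryonic class sum. Summed over its cells, Sema3c stood at 616 CPM (Poisson interval 567 to 669), Sema5a at 395 CPM (356 to 438) and Efna1 at 109.9 CPM (89.6 to 133), while Sema3c was at most 6.03 CPM in any embryonic class.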

How the results depend on the processing

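Without the library block the members called were 23 in epiblast-like over endoderm-like, 30 in trophoblast-like over epiblast-like, 27 in trophoblast-like over endoderm-like, 18 in giant cell-like over trophoblast-like and 17 in parietal endoderm-like over endoderm-like cells. Members tested without the block were 45, 45, 45, 33 and 32 in that order. Leaving out each library in turn gave 22 to 27, 29 to 35, 24 to 33, 17 to 23 and 14 to 26 calls in the same order. The shares of all genes called at the settings of this paragraph are not given, here or above. A changed count is therefore no result about the members alone. Thinned to 3000 UMIs, with fewer genes tested, 17 members were called in epiblast-like over endoderm-like, 19 in trophoblast-like over epiblast-like and 15 in giant cell-like over trophoblast-like cells, and clustering each library alone gave 10 in the last. For single members, 172 values lost their call over all settings and 2387 kept their direction and their side of the threshold.

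Single members reversed in few cases. Epha10 in epiblast-like over endoderm-like cells was -0.55 with no library block, Epha2 in giant cell-like over trophoblast-like cells -0.0278 at 1000 genes a cell, and Efnb2 in parietal endoderm-like over endoderm-like cells -0.23 at 2500 genes and -0.0839 at resolution 0.5. Epha4 in trophoblast-like cells, E5.5 over E4.5, was -2.03 at resolution 0.5, and Sema3f in trophoblast-like cells, E5.25 over E4.75, was 0.50 at 2500 genes and 0.24 with each library clustered alone. The causes were not tested.

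Counts of members between E5.5 and E4.5 were 4 in epiblast-like, 6 in endoderm-like and 0 in trophoblast-like cells at 50 CPM, and 24, 25 and 22 with no CPM minimum. At 3-fold they were 7 in epiblast-like and 5 in trophoblast-like cells, and at 10% mitochondrial counts 17 in trophoblast-like cells. Set against E4.75 instead, a choice made after seeing the data, they were 6, 4 and 4. Between E5.25 and E4.75 the epiblast-like, endoderm-like and trophoblast-like counts were 3, 1 and 2 at 50 CPM, 15, 19 and 17 with no minimum, and 2, 1 and 1 at 3-fold. The epiblast-like count was 3 under median-of-ratios scaling, and the endoderm-like count 5 with each library clustered alone and 5 when thinned. The trophoblast-like count was 2 at 1000 genes, 1 at 2500 genes, 7 at resolution 0.5, 2 at resolution 2.0 and 1 with each library clustered alone. Endoderm-like cells gave no E5.5 over E4.5 value at resolution 0.5. Apart from the choice of E4.75, the shares of all genes at these settings are not given beside the counts. Stage ratios rest on 1 library each, and small sums, those of E3.5 most, limit the lower levels.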

Other observations

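Clusters that took no class name also carried members. In the undivided cluster, with markers of both endoderm classes, Efna4 stood at 93.5, 44.8, 35.6 and 59.1 CPM and Efnb1 at 44.1, 93.7, 81.4 and 35.1 CPM from E4.75 to E5.5, and Sema6d was between 1.8 and 11.3 CPM, below the 72.2 to 139 CPM of parietal endoderm-like cells. Among the uterine epithelium-like cells Plxnb2 stood at 128 CPM and Sema6a at 240.2 CPM, and Plxna2, high in the endoderm, had 1 UMI.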
